A study of Homo sapiens with 9 samples.

Results

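The 41 genes described here encode the core machinery of macroautophagy and a small set of lysosomal proteins, and they were taken as a list of gene symbols. No measured value enters the rule, but the list was drawn up with earlier results of these data known. All 41 were among the 15164 genes with values, as the rule requires, and none was at 0 in any library. By role they fell into 9 groups: the ULK initiation complex, the class III PI3-kinase complexes, lipid supply to the phagophore, the ATG12 and ATG8 conjugation enzymes, the ATG4 proteases, the ATG8 proteins, the cargo receptors, the transcription factors TFEB and TFE3, and lysosomal membrane proteins and cathepsins.

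In macroautophagy, the ULK1 kinase complex starts a membrane sac, the phagophore, and the class III PI3-kinase marks it with the lipid PI3P. Lipid is then brought in by ATG2 and ATG9 proteins, and the ubiquitin-like ATG8 proteins (LC3 and GABARAP families) are attached to the membrane, where receptors such as p62 (SQSTM1) tether cargo. The closed autophagosome fuses with the lysosome, whose hydrolases digest the content. The kinase mTOR, in complex 1 on the lysosome, restrains the first step and keeps TFEB and TFE3, which drive lysosomal genes, out of the nucleus. In liver cancer cells the pathway is studied both as a nutrient supply and as a readout of AKT-mTOR signaling.

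RNA-seq was done on wild-type cells labelled HepG2, a human hepatocellular carcinoma cell line. Transfection was with a scrambled siRNA (siCtrl), siRNA to the long noncoding RNA IGFRIL (siIGFRIL), or siRNA to the RNA-binding protein PTBP1 (siPTBP1). Each group had 3 libraries. The study asked which transcripts respond to the loss of either partner of the IGFRIL-PTBP1 complex, which it relates to mTOR signaling and autophagy. The time after transfection was not given in the sources used here, and a single cell line was used. Nothing in the labels says that libraries of one group were grown apart, and what the p-values weigh is then library-to-library spread that could be technical alone. In a bulk sample, fewer cells of a type and less RNA per cell cannot be told apart.

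The libraries held 23426747 to 27942736 counts. PTBP1 was at 9750, 10116 and 9524 scaled counts (read counts adjusted for library size) in siCtrl, 10335, 9960 and 10528 in siIGFRIL, and at 2297, 2141 and 2084 in siPTBP1, as labelled (log2 fold change -2.17 upon PTBP1 knockdown). The HepG2 label could be checked only in part: of 13 hepatocyte and HepG2 markers, 3 had a value (CPS1 at 3050 CPM in siCtrl, APOE at 1.4 and TF at 0.202). The other 10, ALB, AFP and HNF4A among them, were not listed in the values used here. The lowest mean count of any listed gene was 5, so an unlisted gene may have been left out for few counts. Whether these markers had few or no counts was not tested. Of 6 fibroblast markers 4 were listed, COL1A1 at 219, COL3A1 at 356, PDGFRB at 29.4 and LUM at 0.254 CPM in siCtrl. COL1A2 and DCN were not listed. Of 5 leukocyte markers 1 was listed, CD14 at 0.414 CPM in siCtrl. Of 4 endothelial markers 3 were listed, CDH5 at 14.8, VWF at 0.451 and PECAM1 at 0.247 CPM in siCtrl. Of the listed hepatocyte markers CPS1 alone was abundant, and the most defining ones had no value. APOE and TF were below COL1A1, COL3A1, PDGFRB and CDH5. The listed markers do not establish the label, and the cells are called HepG2 by their label alone.

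The siRNAs the study lists for these targets are shown because a match in a member would change the reading of that member. Written as the sense strand, which reads like the target RNA, they are:
siIGFRIL-1-S: ccuccugaguagcuagaau
siIGFRIL-2-S: gucugauucuaaaggaaau
siPTBP1-1-S: gcacaguguugaagaucau
siPTBP1-2-S: gcgugaagauccuguucaa
Searched whole in the annotated transcripts, they matched 0 of the 41 members. Sites for the seed, a short part of an siRNA, were in 6 members for siIGFRIL-1-S and 29 for siIGFRIL-2-S. Such sites were in 16 members for siPTBP1-1-S, 14 for siPTBP1-2-S and 3 for the control siRNA. Seed sites were searched over whole transcripts and in the members alone, so no share over all genes stands beside these counts. Whether a seed site affected any member was not tested. Searched whole, both PTBP1 siRNAs matched PTBP1 and no other gene. The siRNA siIGFRIL-1-S matched annotated transcripts of 5 genes, AGMAT and R3HDM1 among them, and siIGFRIL-2-S matched 1, HELLS. No matched gene carried the name IGFRIL. The paper places IGFRIL downstream of HELLS and cites an earlier study that proposed an overlap with the untranslated end of a HELLS isoform. It reports that changing IGFRIL left HELLS expression unaffected. Which of each pair went into the libraries was not given in the sources used here.

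Before any comparison, the members covered a wide range of expression. Levels between genes were compared per kb of merged exon, as TMM-scaled counts in siCtrl (mean ± SD, n = 3). GABARAP, a ubiquitin-like ATG8 protein, was at 3726 ± 311 per kb and ranked 175 of 13876 genes with an exon length. The aspartic protease CTSD was at 2478 ± 110, the membrane glycoprotein LAMP1 at 1451 ± 11.9, and TFE3 at 1331 ± 27.4. These leading levels were each separated by more than their spread, whereas the cysteine protease CTSL (526 ± 26.4) and MAP1LC3B (522 ± 9.35) were not. At the low end, the kinase ULK2 was at 34.2 ± 0.908 and TFEB at 37.5 ± 1.04 per kb. ATG16L1, which places the ATG8 conjugation machinery on the membrane, was at 13.3 ± 3.5. The cysteine protease CTSB was lowest at 1.51 ± 0.191 per kb, with 14, 16 and 18 scaled counts in the siCtrl libraries. Of the 41 members, 26 had a mean above 1000 scaled counts in siCtrl and 2, CTSB and ATG16L1, a mean below 100.

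Upon IGFRIL knockdown few RNAs of the autophagy and lysosome genes changed by a measurable amount. The paper checked its IGFRIL knockdown by qRT-PCR. The level of IGFRIL in these libraries was not examined here, so a small response and a weak knockdown cannot be told apart. A gene was called when limma gave a Benjamini-Hochberg adjusted p under 0.05 over all 15164 genes and a fold change over 1.2. By this rule 0 members were called higher, where 0.27% of all genes were, and 1 was called lower, where 0.191% were. At an unadjusted p under 0.05, limma placed 6 members higher and 2 lower, beside 835 higher and 669 lower of all 15164 genes, so the members had more such values on the higher side than all genes. By the adjusted rule voom also called 0 higher. The median log2 fold change of the members was 0.019, beside -0.0015 over all genes. For 33 of the 41 the 95% interval lay within the 1.2-fold limit in both directions, so for those RNAs a change beyond 1.2-fold lay outside the interval.

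The called member was PIK3R4 (VPS15), the regulatory subunit that holds the class III PI3-kinase together. It was at 1479, 1482 and 1338 scaled counts in siCtrl, 1124, 1025 and 1129 in siIGFRIL, and at 846, 751 and 900 in siPTBP1. The 3 groups did not overlap, with siIGFRIL in the middle and siPTBP1 lowest. The log2 fold change in siIGFRIL was -0.39 (SE 0.07, 95% interval -0.54 to -0.24, adjusted p = 0.0108), and in siPTBP1 it was -0.79 (adjusted p = 4.6e-09). The siIGFRIL call was lost without siCtrl replicate 1 (adjusted p = 0.0735) or without siCtrl replicate 2 (adjusted p = 0.0759).

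ATG2B, which transfers lipid into the phagophore, had the next smallest p among members that were lower. Its scaled counts were 1128, 1204 and 946 in siCtrl and 887, 729 and 976 in siIGFRIL, so the groups overlapped. The log2 fold change was -0.34 (SE 0.109, adjusted p = 0.235), and the gene was called lower without siCtrl replicate 3 (-0.44, adjusted p = 0.0391). ATG12, the ubiquitin-like protein joined to ATG5, was at 879, 957 and 959 in siCtrl and at 822, 855 and 898 in siIGFRIL. These groups overlapped and the gene was not called (adjusted p = 0.553).

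Among members that were higher, CTSB had the smallest p, with 30, 26 and 32 scaled counts in siIGFRIL against 14, 16 and 18 in siCtrl. Every siIGFRIL library was above every siCtrl library, but the counts were few, and the log2 fold change of 0.86 (SE 0.244) had an adjusted p of 0.146. BECN1, the scaffold of the PI3-kinase complexes, was at 576, 565 and 566 in siCtrl against 686, 631 and 671 in siIGFRIL (log2 fold change 0.22, SE 0.071, adjusted p = 0.223). ATG9A, a lipid scramblase on vesicles that seed the phagophore, was at 4741, 4953 and 4862 in siCtrl against 5239, 5374 and 5119 in siIGFRIL (0.11, SE 0.04, adjusted p = 0.297). Neither pair of groups overlapped, and neither gene passed the test. Of the exon bases of BECN1 17.1% and of ATG9A 38.8% lie under exons of other genes, whose reads were not separated here.

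SQSTM1 encodes p62, the cargo receptor whose protein is often used as a readout of autophagy. Its RNA, which does not measure p62 protein or autophagy, was uneven within siIGFRIL. From LC3 protein conversion and a fluorescent LC3 reporter, the paper proposes faster autophagy upon IGFRIL knockdown. It was at 371, 357 and 318 scaled counts in siCtrl, and at 610, 342.3 and 639 in siIGFRIL. Replicates 1 and 3 of siIGFRIL were above all other libraries while replicate 2 lay among the siCtrl libraries. The log2 fold change was 0.55 (SE 0.204, adjusted p = 0.389). It became 0.84 with adjusted p = 4.28e-05 without siIGFRIL replicate 2. The plot of scaled counts by library shows this gene beside PIK3R4, ATG2B and CTSB.

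**Figure D1:**
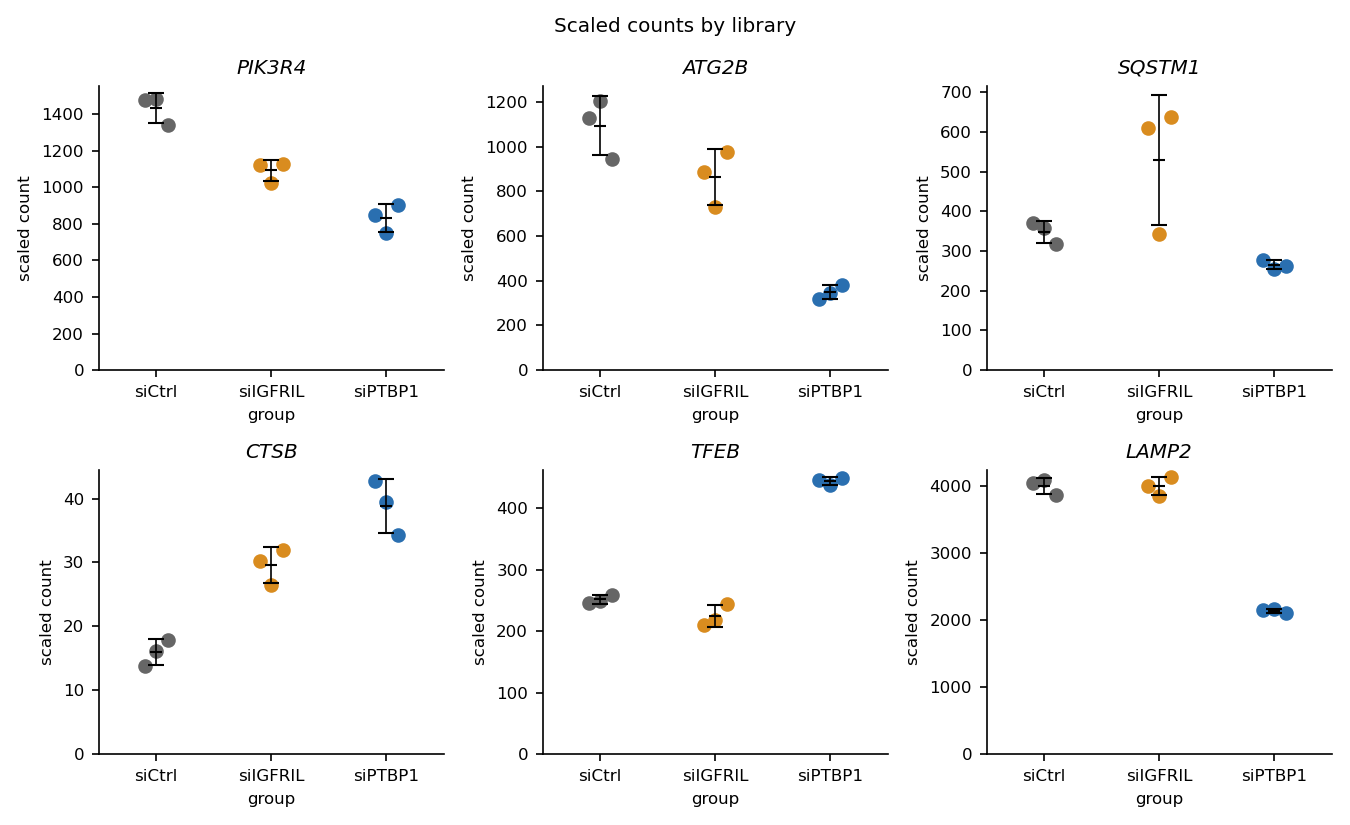
Scaled counts (y axis, from 0) of 6 genes in the 9 libraries by group (x axis). Points are libraries and the bars give the mean and SD of 3 libraries. PIK3R4 steps down from siCtrl through siIGFRIL to siPTBP1, SQSTM1 splits within siIGFRIL (342.3 against 610 and 639), and TFEB and LAMP2 differ in siPTBP1 from both other groups.

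None of the ATG8 proteins was called upon IGFRIL knockdown. The log2 fold changes were 0.02 for MAP1LC3B, 0.03 for GABARAP, -0.01 for GABARAPL1 and 0.08 for GABARAPL2, with standard errors of 0.048 to 0.058. TFEB was at 247, 249 and 260 scaled counts in siCtrl and at 211, 218 and 245 in siIGFRIL (log2 fold change -0.17, adjusted p = 0.554). TFE3 had a log2 fold change of -0.01, LAMP1 of 0.02, LAMP2 of -0.00, CTSD of 0.02 and CTSL of 0.10, and none of them was called.

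Upon PTBP1 knockdown a large part of the pathway changed in both directions. Of the 41 members 13 were called higher, beside 32.2% of all genes, and 13 lower, beside 33.8% of all genes. Both shares of the members were 31.7%, close to the background, and the median log2 fold change was -0.086 beside 0.0039 over all genes. The quartiles of the members were -0.46 and 0.38 on the log2 scale, and those of all genes -0.60 and 0.60. The 2 knockdowns share the siCtrl libraries. The direction of a change in siPTBP1 is relative to the median gene after scaling: without scaling, the median of all genes moved by -0.22, with 6 members called higher and 22 lower. The calls then lost were those of WIPI2 (0.18), VMP1 (0.16), ATG3 (0.16), ATG10 (0.15), ATG4B (0.21), ATG9A (0.05) and CTSD (0.07).

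**Figure D2:**
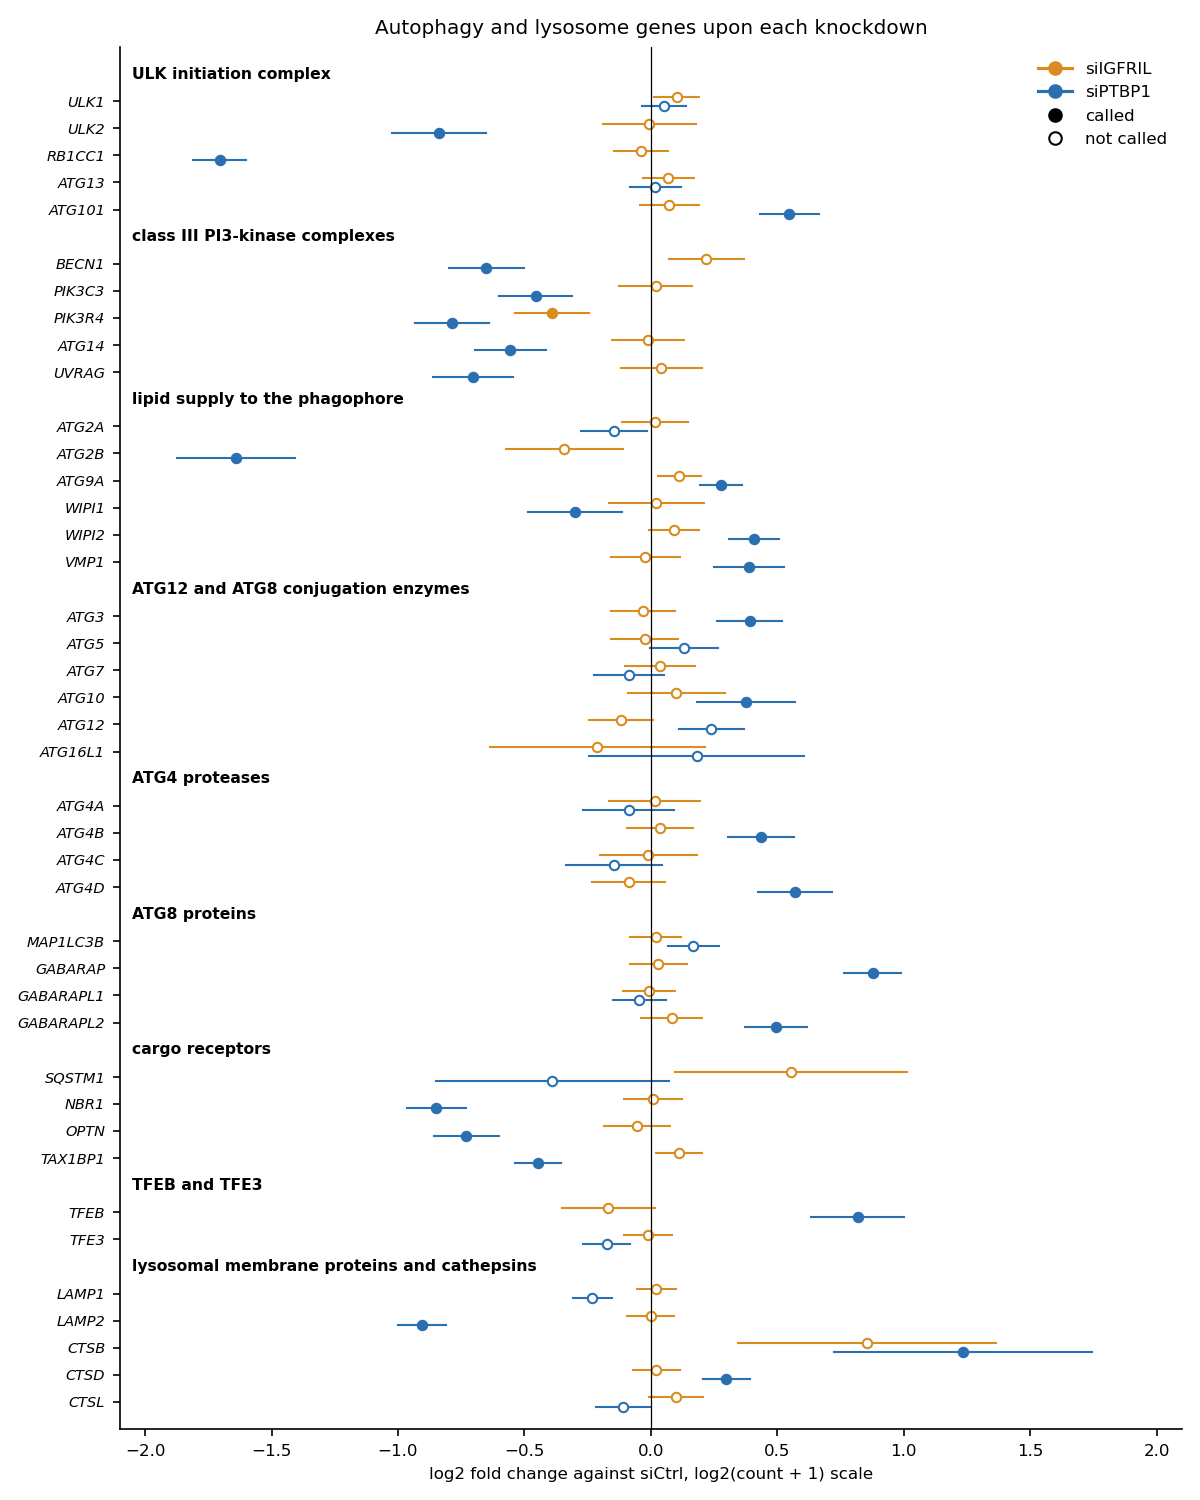
Log2 fold change against siCtrl (x axis) of the 41 genes, grouped by role (y axis), upon IGFRIL (orange) and PTBP1 knockdown (blue). Bars are 95% intervals from limma on 3 libraries a group, and filled points are called. All 5 genes of the class III PI3-kinase complexes lie below 0 in siPTBP1, and PIK3R4 is the single filled point in siIGFRIL.

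Fold changes upon PTBP1 knockdown ran with transcript length across the whole transcriptome. Across 13876 genes with an exon length, Spearman's rho between length and log2 fold change was -0.438, and across the 41 members it was -0.306. These are descriptions across genes of the same libraries, which are not independent. Upon IGFRIL knockdown the values were -0.159 and 0.0758. The 20 shorter members had a median log2 fold change of 0.149 in siPTBP1 with 8 called higher and 4 lower, and the 21 longer ones a median of -0.146 with 5 higher and 9 lower. After removal of the length and GC trend of each library, 18 of the 26 called members kept their call in the same direction, 9 lower and 9 higher. For 5 the call was lost (ATG101, UVRAG, ATG9A, LAMP2, CTSD) and 3 were called in the opposite direction (PIK3C3, ATG4D, TAX1BP1). Whether the length relation has a part in any single change was not tested. Values without the trend stand beside most of the genes below. For the others they were -0.49 for WIPI1, 0.67 for WIPI2, 0.84 for ATG3, 0.61 for ATG10 and 0.36 for ATG16L1. SQSTM1 was at -0.43, LAMP1 at -0.19 and CTSB at 1.58. A further 6 members, not called as measured, were called there, ATG2A and TFE3 lower and ATG5, ATG7, ATG12 and MAP1LC3B higher.

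In the ULK initiation complex the scaffold fell and an accessory subunit rose. RB1CC1 (FIP200), the scaffold that binds the other subunits, was at 5046, 5128 and 4536 scaled counts in siCtrl, 4788, 4582 and 4945 in siIGFRIL, and at 1463, 1514 and 1526 in siPTBP1. The siPTBP1 libraries lay far below all 6 others, and the log2 fold change of -1.71 (SE 0.051, adjusted p = 3.09e-15) was the lowest of the 41. Without the length and GC trend it was -1.09. ULK2, the lower expressed of the paired kinases, was at 346, 329 and 337 in siCtrl and at 197, 187 and 181 in siPTBP1. These groups did not overlap (log2 fold change -0.84, SE 0.088, adjusted p = 4.94e-08), and the value was -0.36 without the length and GC trend. ATG101, which stabilizes ATG13, was at 1390, 1290 and 1405 in siCtrl and at 1892, 2098 and 1985 in siPTBP1, again without overlap (0.55, SE 0.056, adjusted p = 3.02e-08). It shifted to -0.09 without the length and GC trend, and 19.2% of its exon bases also belong to another gene. The kinase ULK1 (0.05, and -0.19 without the trend) and its partner ATG13 (0.02, and 0.19) were not called.

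All 5 genes of the class III PI3-kinase complexes were called lower, where 33.8% of all genes were. PIK3R4 is given above. The scaffold BECN1 was at 365, 380 and 343 scaled counts in siPTBP1, below 565 to 576 in siCtrl, with a log2 fold change of -0.65 (SE 0.071, adjusted p = 7.88e-08). UVRAG, the subunit of the endosomal complex, was at 916, 951 and 841 in siCtrl and at 542, 577 and 542 in siPTBP1 (-0.70, SE 0.076, adjusted p = 6.8e-08). In both genes every siPTBP1 library was below every other library. ATG14, which directs the kinase to the site of autophagosome formation, had a log2 fold change of -0.56, and PIK3C3 (VPS34), the catalytic subunit, one of -0.46. Without the length and GC trend, PIK3R4 (-0.47), BECN1 (-0.35) and ATG14 (-0.29) were still called lower. UVRAG was then at -0.26, just inside the fold limit, and PIK3C3, the longest member at 15.2 kb of exon, was called higher at 0.50.

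The genes that shape and feed the phagophore divided. ATG2B fell from 946 to 1204 scaled counts in siCtrl to 320, 346 and 383 in siPTBP1 (log2 fold change -1.64, SE 0.109, adjusted p = 1.39e-09), and was at -0.81 without the length and GC trend. Its paralog ATG2A, shorter in exon (7.83 kb against 14.3 kb), was at -0.15 (adjusted p = 0.041) and under the fold limit. It was called lower, like ATG2B, without the length and GC trend (-0.35, adjusted p = 1.44e-05) and without scaling (-0.37). WIPI1 and WIPI2 both read PI3P on the membrane. WIPI1 fell by 0.30 on the log2 scale (adjusted p = 0.00517), a call lost without siCtrl replicate 1 (-0.25) or siPTBP1 replicate 3 (-0.26), under quantile normalization (-0.20) or with a filter of 1 CPM in every library (-0.26). WIPI2 rose (0.41, adjusted p = 2.01e-07). VMP1, a scramblase of the endoplasmic reticulum needed for phagophore growth, rose by 0.39 (adjusted p = 4.3e-05) and stood at 1.14 without the length and GC trend. ATG9A rose by 0.28 (adjusted p = 3.85e-06), close to the limit. Without siCtrl replicate 1 it was at 0.26 and under quantile normalization at 0.23, not called in either, and it shifted to -0.06 without the length and GC trend.

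Among the 6 conjugation enzymes 2 were called higher and 0 lower, beside 32.2% and 33.8% of all genes. ATG3, the E2-like enzyme that hands ATG8 to lipid, rose by 0.39 (adjusted p = 9.89e-06), and ATG10, the E2-like enzyme for ATG12, by 0.38 (adjusted p = 0.00112). ATG12 was at 1079, 1139 and 1078 scaled counts in siPTBP1, above every siCtrl library, but its fold change of 1.18 stayed under the limit (log2 fold change 0.24, adjusted p = 0.00172). It was called higher under quantile normalization (0.39) and with a filter of 1 CPM in every library (0.28). ATG5, its conjugation target, was at 0.13 (0.29 and called under quantile normalization), and ATG7, the E1-like enzyme, at -0.09. ATG16L1 was at 0.18 with an interval of -0.24 to 0.61, on 57 to 104 scaled counts, and was not called. Without the length and GC trend, ATG12 (0.99), ATG5 (0.59) and ATG7 (0.35) were called higher.

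The ATG4 proteases prepare ATG8 proteins for lipid attachment and take them off again. ATG4D was at 897, 900 and 889 scaled counts in siCtrl, 772, 943 and 820 in siIGFRIL, and at 1328, 1264 and 1403 in siPTBP1. All siPTBP1 libraries were above the others (log2 fold change 0.57, SE 0.069, adjusted p = 3.73e-07). Without the length and GC trend it was called lower at -0.47, and 14.7% of its exon bases overlap another gene, KRI1. ATG4B, the most active of the family, rose by 0.43 (adjusted p = 3.68e-06) and stayed called at 0.33 without the trend. ATG4A (-0.09, and -0.16 without the trend) and ATG4C (-0.15, and 0.01) were not called.

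Of the 4 ATG8 proteins, GABARAP and GABARAPL2 were called higher, and without the length and GC trend MAP1LC3B was called as well, at a value like theirs. GABARAP was at 6800, 7054 and 7953 scaled counts in siCtrl, 7410, 7868 and 6945 in siIGFRIL, and at 13270, 13355 and 13362 in siPTBP1. The siPTBP1 libraries were close together and far above the rest (log2 fold change 0.88, SE 0.054, adjusted p = 2.62e-11). It is the shortest member (1.95 kb of exon), was at 0.29 without the length and GC trend, still called, and 48.2% of its exon bases lie in another annotated gene as well. GABARAPL2 was at 1067, 1019 and 1141 in siCtrl, 1132, 1194 and 1090 in siIGFRIL, and at 1504, 1514 and 1526 in siPTBP1. These siPTBP1 libraries again did not overlap the others (0.49, SE 0.058, adjusted p = 2.22e-07), and the value was 0.38 without the length and GC trend.

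MAP1LC3B, which encodes the LC3 protein followed in most autophagy assays, was at 2575, 2654 and 2660 scaled counts in siCtrl, 2601, 2724 and 2668 in siIGFRIL, and at 3095, 2787 and 2989 in siPTBP1. The siPTBP1 libraries were highest, by a fold of 1.12 that stayed under the limit (log2 fold change 0.17, adjusted p = 0.00398). It was called higher without the length and GC trend, at 0.30 (adjusted p = 2.78e-06). GABARAPL1 was at 3569, 3551 and 3437 in siCtrl, 3505, 3449 and 3545 in siIGFRIL, and at 3137, 3528 and 3580 in siPTBP1. Its groups overlapped (log2 fold change -0.05, 95% interval -0.15 to 0.06, and -0.15 without the length and GC trend). Counted per kb of exon, GABARAP made up 68.0% ± 1.70 (SD, n = 3) of the summed level of the 4 genes in siCtrl, 68.2% ± 1.24 in siIGFRIL and 77.9% ± 0.371 in siPTBP1. The share of GABARAPL1 was 15.9% ± 1.21 in siCtrl and 9.61% ± 0.609 in siPTBP1, and that of MAP1LC3B was 9.55% ± 0.434 and 6.70% ± 0.382. The share of MAP1LC3B fell although its own counts were higher in siPTBP1. These shares are of counts as measured, with the length and GC trend left in. Without the trend, GABARAP (log2 fold change 0.29) rose no more than MAP1LC3B (0.30) or GABARAPL2 (0.38).

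**Figure D3:**
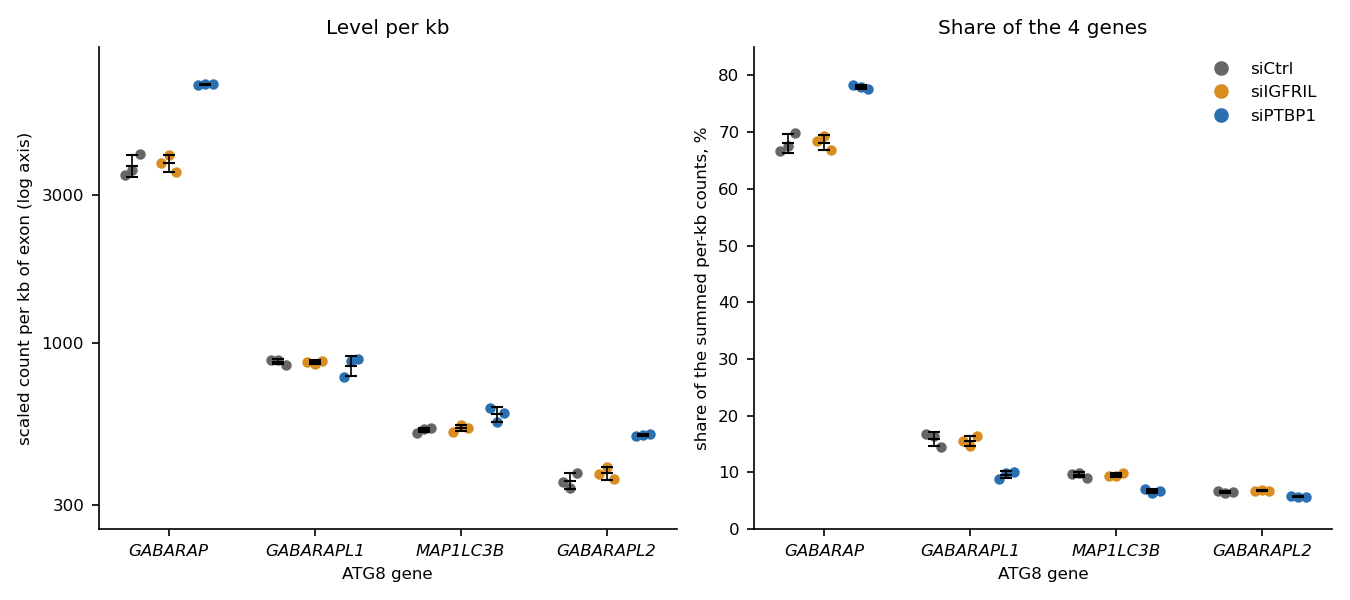
ATG8 genes (x axis) in the 9 libraries by group, as scaled counts per kb of exon (left, log axis) and as percent of the summed per-kb counts of the 4 genes (right, from 0). Points are libraries, bars the mean and SD of 3. GABARAP rises in siPTBP1 to a share of 77.9% from 68.0%, while siIGFRIL lies on siCtrl. Both panels show counts as measured, with the length and GC trend left in.

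The cargo receptors moved down in siPTBP1, 3 of 4 past the test, where 33.8% of all genes were called lower. NBR1, which links ubiquitinated cargo to ATG8, was at 3495, 3527 and 3367 scaled counts in siCtrl, 3578, 3151 and 3747 in siIGFRIL, and at 1945, 1878 and 1944 in siPTBP1. The siPTBP1 libraries were far below both other groups (log2 fold change -0.85, SE 0.055, adjusted p = 4.73e-11). NBR1 was at -0.35 and still called without the length and GC trend. OPTN, a receptor for damaged mitochondria and bacteria, fell by 0.73 on the log2 scale (adjusted p = 1.99e-09) and was at -0.54 without the trend. TAX1BP1, a receptor for aggregates, fell by 0.45 (adjusted p = 1.8e-08), and without the length and GC trend was called higher at 0.27. SQSTM1 was at 278, 256 and 263 in siPTBP1, below all siCtrl libraries, with a log2 fold change of -0.39 that was not called (SE 0.204, adjusted p = 0.112). The siIGFRIL libraries share this fit, and without siIGFRIL replicate 2 the value was -0.38 and called (adjusted p = 0.000408), as it was with only the siCtrl and siPTBP1 libraries (adjusted p = 0.00129).

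The transcription factors moved apart. TFEB was at 446, 438 and 449 scaled counts in siPTBP1, above 211 to 260 in the other 6 libraries (log2 fold change 0.82, SE 0.087, adjusted p = 6.2e-08). It remained called without the length and GC trend (0.57). TFE3, the more abundant of the pair per kb, was at 5639, 5690 and 5470 in siCtrl, 5349, 5800 and 5525 in siIGFRIL, and at 4724, 5131 and 5028 in siPTBP1. The siPTBP1 libraries were lowest, within the fold limit (-0.18, adjusted p = 0.00165), and TFE3 was called lower at -0.59 with the trend removed. Their relative MITF, outside the 41, fell by 1.195 on the log2 scale (adjusted p = 1.19e-12) and was at -0.68 without the trend.

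The 5 lysosomal membrane proteins and cathepsins gave 2 called higher and 1 lower, beside 32.2% and 33.8% of all genes. LAMP2, a membrane glycoprotein needed for autophagosome fusion and chaperone-mediated autophagy, was at 4042, 4080 and 3867 scaled counts in siCtrl, 3998, 3853 and 4129 in siIGFRIL, and at 2143, 2157 and 2099 in siPTBP1. The siPTBP1 libraries were near each other and well below the rest (log2 fold change -0.91, SE 0.045, adjusted p = 1.02e-12). At 10.6 kb of exon and 38.0% GC it was at -0.05 without the length and GC trend, and the call was lost. LAMP1 was at 8313, 8273 and 8406 in siCtrl, 8571, 8433 and 8376 in siIGFRIL, and at 6965, 7156 and 7160 in siPTBP1. All siPTBP1 libraries were lower, by less than the fold limit (-0.23, adjusted p = 1.33e-05), and the gene was called lower under quantile normalization (-0.33).

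CTSB was at 43, 39 and 34 scaled counts in siPTBP1, above both other groups, with a log2 fold change of 1.24 (SE 0.244, adjusted p = 0.000143). CTSD was at 13790, 13724 and 14842 in siCtrl, 13924, 15097 and 13989 in siIGFRIL, and at 16914, 18117 and 17031 in siPTBP1, where it rose by 0.30 (adjusted p = 5.53e-06). The siPTBP1 libraries of CTSD did not overlap the others, but the value was 0.07 under quantile normalization, shifted to -0.10 without the length and GC trend, and 48.0% of its exon bases also belong to another gene. CTSL was at 3193, 3071 and 3390 in siCtrl, 3385, 3354 and 3595 in siIGFRIL, and at 3009, 3115 and 2827 in siPTBP1. Its siPTBP1 and siCtrl groups overlapped (log2 fold change -0.11, adjusted p = 0.0616), and the value turned to 0.20 without the length and GC trend, under the fold limit.

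**Figure D4:**
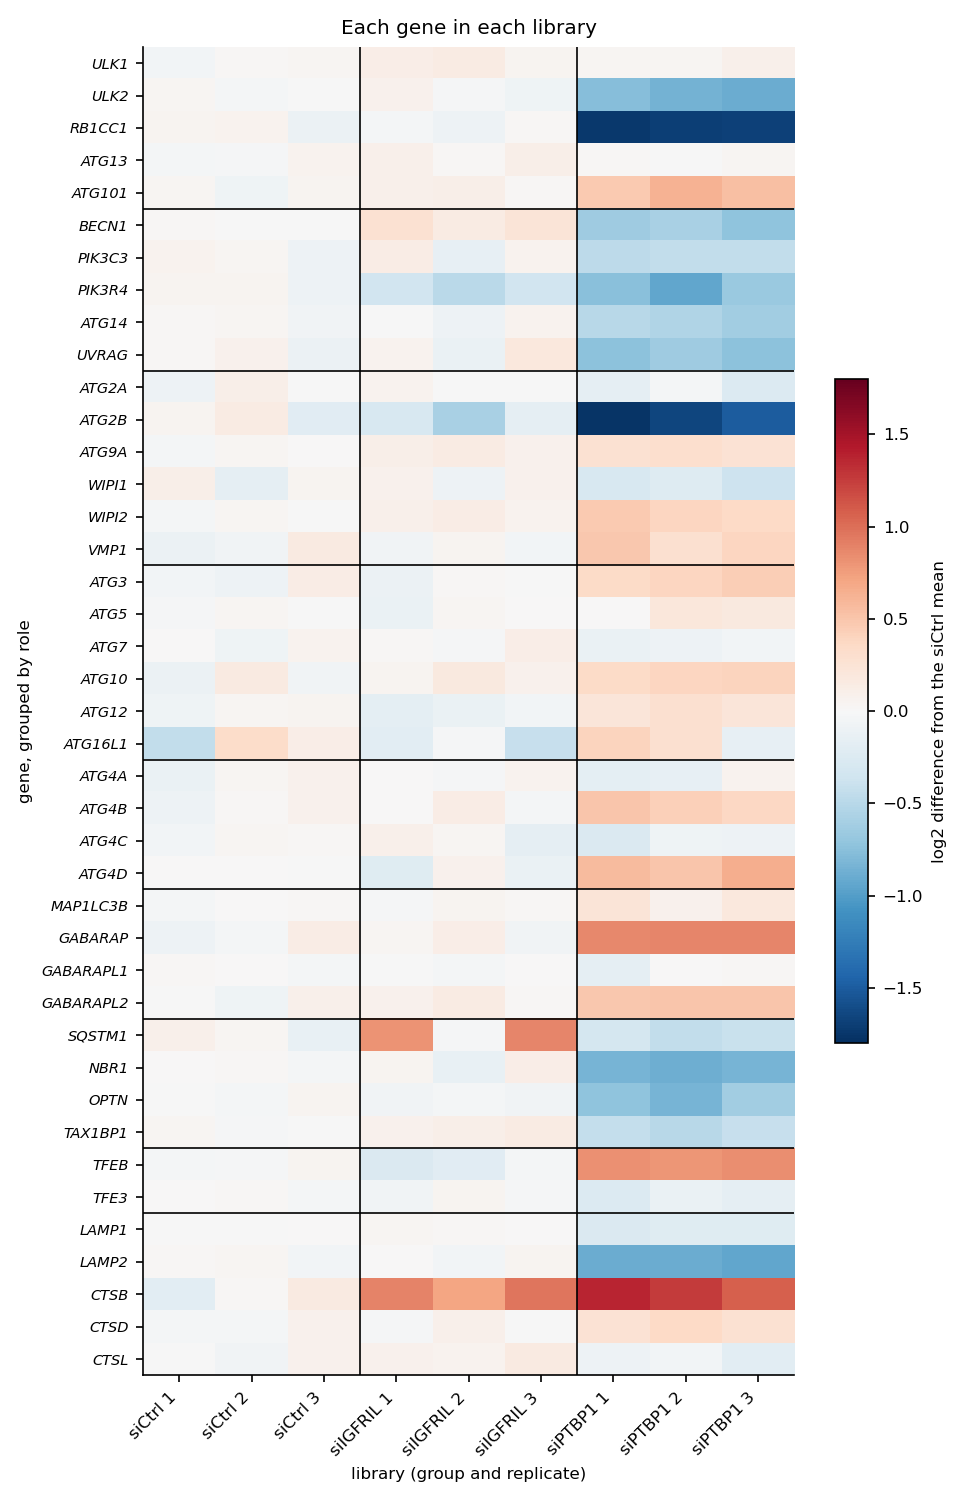
Log2 difference of each of the 41 genes (y axis, grouped by role) in each of the 9 libraries (x axis) from its siCtrl mean, with red above and blue below. The siPTBP1 libraries share one pattern of both colours, RB1CC1 and ATG2B being lowest. In siIGFRIL most cells are pale, the deeper ones being those of CTSB, PIK3R4, ATG2B in replicates 1 and 2, ATG16L1 in replicate 3 and SQSTM1 in replicates 1 and 3.

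TFEB and TFE3 bind E-boxes with the core CACGTG, which in lysosomal promoters often stands in a longer element known as CLEAR. Since TFEB RNA rose in siPTBP1, promoter windows of 300 bases (250 before the start, 50 after) from RefSeq on GRCh38.p14 were searched on both strands, and 36 of the 41 members had one. CACGTG was in 4 of 36 windows (11.1%), beside 10.2% of 11201 listed genes. The longer TCACGTGA, which contains it, was in 2 of 36 (5.56%), beside 1.89% of all and 9 of 49 other lysosomal genes (18.4%). The stretches around CACGTG are shown for the 4 members that hold it, because these members did not move one way. Capitals mark CACGTG, and positions count from the start site.
ATG14, chr14:55411819-55411878, minus strand: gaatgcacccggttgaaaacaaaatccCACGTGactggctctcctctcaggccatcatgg
ATG3, chr3:112561938-112562007, minus strand: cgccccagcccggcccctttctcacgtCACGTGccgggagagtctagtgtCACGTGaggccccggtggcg
CTSD, chr11:1763942-1764001, minus strand: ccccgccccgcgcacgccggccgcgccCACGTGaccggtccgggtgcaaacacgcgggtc
LAMP1, chr13:113297020-113297129, plus strand: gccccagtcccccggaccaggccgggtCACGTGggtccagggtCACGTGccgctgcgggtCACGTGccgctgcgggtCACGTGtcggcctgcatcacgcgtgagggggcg
LAMP1, chr13:113297184-113297263, plus strand: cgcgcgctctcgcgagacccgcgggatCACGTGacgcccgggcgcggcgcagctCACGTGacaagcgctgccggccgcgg
The LAMP1 window held 6 copies, from position -192 to -1, that of ATG3 2 copies at -18 and 6, and those of ATG14 and CTSD 1 each, at -21 and -47. In siPTBP1 these genes had log2 fold changes of -0.23 (LAMP1), 0.39 (ATG3), -0.56 (ATG14) and 0.30 (CTSD). A match is a run of letters and was not tested as a binding site.

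The direct test of siPTBP1 against siIGFRIL, which leaves out siCtrl, called 12 members higher, beside 31.5% of all genes, and 14 lower, beside 33.1%. All 4 cargo receptors were lower in siPTBP1 here. SQSTM1 was at 256 to 278 scaled counts against 342.3 to 639 in siIGFRIL, without overlap (log2 difference -0.94, SE 0.204, adjusted p = 0.00202). NBR1 (-0.86), OPTN (-0.67) and TAX1BP1 (-0.56) were lower as well. Without the length and GC trend SQSTM1 was at -0.99, NBR1 at -0.39 and OPTN at -0.49, while TAX1BP1 turned to 0.12. BECN1 differed by -0.87 (adjusted p = 1.3e-09), TFEB by 0.99 (adjusted p = 4.53e-09), GABARAP by 0.85 and RB1CC1 by -1.67. With the length and GC trend removed, BECN1 was at -0.59, TFEB at 0.74, GABARAP at 0.29 and RB1CC1 at -1.085. PIK3R4, called lower in both knockdowns, was also lower in siPTBP1 than in siIGFRIL (-0.39, adjusted p = 4.75e-05). That difference was -0.09 without the length and GC trend and -0.24 under quantile normalization, not called in either. For CTSB the knockdowns did not differ beyond the test (0.38, 95% interval -0.13 to 0.89, adjusted p = 0.17), and CTSB was called higher in siPTBP1 without the length and GC trend (0.70, adjusted p = 0.017).

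Regulators upstream were examined in the same fits. MTOR, the kinase that holds the pathway back, was at 4741, 4654 and 3894 scaled counts in siCtrl, 3456, 2743 and 3354 in siIGFRIL, and at 1945, 1971 and 1931 in siPTBP1. The 3 groups did not overlap, in the same order as for PIK3R4. The log2 fold change was -0.48 (SE 0.089, adjusted p = 0.0372) in siIGFRIL and -1.18 (adjusted p = 7.91e-08) in siPTBP1. The siIGFRIL call was lost with voom (adjusted p = 0.0556), with only the 6 libraries compared (0.1), and on leaving out siCtrl replicate 1 (0.127), siCtrl replicate 2 (0.122) or any siPTBP1 library (0.0547 to 0.073). Of 21 genes of mTORC1 and its lysosomal partners, MTOR was the one called in siIGFRIL. In siPTBP1 8 were called higher and 8 lower, 38.1% each, beside 32.2% and 33.8% of all genes. MLST8, a subunit of mTORC1, rose (0.82), and FNIP1, a partner of folliculin, fell by 1.15 on the log2 scale. MTOR was at -0.67, MLST8 at 0.27 and FNIP1 at -0.49 without the length and GC trend, each still called. Of 6 AMPK subunits, the energy sensor that activates ULK1, 4 were lower and 0 higher in siPTBP1, beside 33.8% and 32.2% of all genes. The catalytic subunits PRKAA1 (-1.49) and PRKAA2 (-0.86) were among them, at -0.96 and 0.01 without the trend. In siIGFRIL limma called 0 AMPK subunits, and 1 had an unadjusted p under 0.05, beside 1504 of all 15164 genes.

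Of 17 further autophagy genes with a value, 5 were called higher and 4 lower in siPTBP1, beside 32.2% and 33.8% of all genes. In siIGFRIL 0 were called and 2 had an unadjusted p under 0.05, beside 1504 of all 15164 genes. In siPTBP1 the autophagosome fusion protein VAMP8 rose by 0.93 (0.10 and not called without the length and GC trend) and the PI3P reader WDR45 by 0.83 (0.55 without the trend). Of 13 further receptors for selective autophagy, 6 were higher and 3 lower in siPTBP1, beside 32.2% and 33.8% of all genes. The mitochondrial receptors FKBP8 (1.53) and PHB2 (0.84) were among those that rose, at 0.61 and 0.50 without the trend. BNIP3L (NIX), a mitophagy receptor, was the one called in both knockdowns. It was at 1821, 2039 and 1842 scaled counts in siCtrl, 2410, 2743 and 2213 in siIGFRIL, and at 4627, 4820 and 5028 in siPTBP1. The groups did not overlap, with log2 fold changes of 0.37 (adjusted p = 0.015) in siIGFRIL and 1.34 (adjusted p = 5.15e-12) in siPTBP1. The siIGFRIL call was lost without siCtrl replicate 1 (adjusted p = 0.102) or siIGFRIL replicate 1 (0.0511). Its paralog BNIP3 went in the same order, at 2092, 2409 and 1987 scaled counts in siCtrl and 2926, 3570 and 2524 in siIGFRIL. It was at 7013, 7617 and 7945 in siPTBP1. In siIGFRIL BNIP3 had a log2 fold change of 0.47 and was not called by limma (adjusted p = 0.228).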

How the data were processed

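RNA of 9 libraries labelled HepG2 was analysed. According to the methods and processing notes, the authors used Trim Galore 0.6.7 for trimming, Bowtie2 2.2.5 for mapping (GRCh38) and RSEM 1.2.8 for gene counts. Per the deposited table, values are log2(count + 1) to 2 decimals, as read from the values themselves, since 100% of the values below 5 lie on the step of a whole count (tolerance 0.006). They were not scaled for depth. Rounding leaves 0.347% on a count, and small differences rest on few counts where the count is low. Columns named si342 were taken as siIGFRIL from the array name of IGFRIL in the methods.

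Counts were returned from the log2 values, scaled between libraries by TMM (a trimmed mean of ratios) and tested as log2(scaled count + 1) with limma 3.58.1 (trend, robust) in R 4.3.3. One fit took all 9 libraries, and the filter (1 or more in 3 libraries) took out no gene. A fold change on this scale understates that of genes with low counts. Since the file holds log2 values, limma stood in for a count test. Benjamini-Hochberg adjustment ran over all 15164 genes. The fit was tested on simulated data. Exon length and GC came from GENCODE (13876 genes matched, 91.5%). The members and lists were chosen with earlier results of these data known. Values per library are given for the 6 called members that rose most and the 6 that fell most in siPTBP1, for the called member and the 3 of smallest p each way in siIGFRIL, and for the ATG8 genes, TFEB, TFE3, LAMP genes and cathepsins, and of the other lists the 1 to 3 genes of smallest p. SQSTM1 in siIGFRIL and BNIP3 were added after their values were seen. Alternatives covered scaling, filters, pseudocount, test, block, length and GC, and leaving out each library.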

Additional observations from a re-analysis of the deposited data

How the results depend on the processing

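Without scaling, the count of members called in siIGFRIL was 1 higher (SQSTM1) and 2 lower (ATG2B joining PIK3R4), in siPTBP1 6 higher and 22 lower, and in siPTBP1 against siIGFRIL 4 higher. On leaving out each library in turn, the count in siIGFRIL ran from 0 to 1 higher and from 0 to 2 lower. The replicate numbers did not pair the libraries (9 same-numbered pairs, correlation of deviations -0.0394 to 0.039, 0 over 0.1). With the replicate number as a block, the members called stayed at 0 higher and 1 lower in siIGFRIL and at 13 and 13 in siPTBP1. Each replicate number occurs once in each group, so the block cannot change a fold change, here or in the length and GC correction below. Only the p-values, and with them the calls, could change. The cause of the shifts was not tested, beyond what each alternative's construction gives.

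Signs turned for values near 0 in siIGFRIL: without scaling MAP1LC3B was at -0.02, GABARAP at -0.010, LAMP1 at -0.017 and CTSD at -0.017. LAMP2 was at 0.0027 with median-of-ratios size factors, 0.00051 with only 6 libraries and 0.047 without the length and GC trend. On leaving out a library, GABARAP ran from -0.018 to 0.095, GABARAPL1 from -0.025 to 0.0039, TFE3 from -0.041 to 0.016, LAMP2 from -0.0257 to 0.026 and CTSD from -0.014 to 0.059.

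In siPTBP1 without scaling, signs turned for ULK1 (-0.18), ATG13 (-0.21), ATG5 (-0.097), ATG16L1 (-0.044) and MAP1LC3B (-0.060), and under quantile normalization for ULK1 (-0.016), ATG7 (0.088) and ATG4A (0.026). GABARAPL1 was at 0.00019 with a filter of 1 CPM in every library. Without the length and GC trend, ULK1 was at -0.19, ATG101 at -0.089, PIK3C3 at 0.50, ATG9A at -0.056, ATG7 at 0.35, ATG4C at 0.0093, ATG4D at -0.47, TAX1BP1 at 0.27 (0.12 against siIGFRIL), CTSD at -0.096, CTSL at 0.20 and PRKAA2 at 0.0084, with the replicate block or not. CTSB and ATG16L1 have the fewest counts and the widest intervals with SQSTM1. On leaving out a library, ATG13 ran from -0.0019 to 0.051, ATG16L1 from -0.042 to 0.35 and GABARAPL1 from -0.081 to 0.014. Over all named genes and alternatives, direction and call were kept in 386 of 419 values in siIGFRIL, 1158 of 1238 in siPTBP1 and 302 of 314 in the direct test.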

Other observations

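Lysosomal genes outside the 41 also divided upon PTBP1 knockdown. Of 17 subunits of the V-ATPase, the proton pump that acidifies the lysosome, 5 were called higher and 5 lower, ATP6V1F rising (log2 fold change 1.27) and ATP6V1A, the catalytic subunit, falling by 1.26 on the log2 scale. Of 36 further hydrolases, 12 were higher and 6 lower, GAA, which digests glycogen, rising by 0.90 and ARSB, a sulfatase, falling by 0.80. Of 17 membrane and sorting genes, 5 were higher and 10 lower, with M6PR, the receptor that sorts hydrolases (-0.93), and NPC1, the cholesterol exporter (-1.01), among those that fell. In siIGFRIL limma called 0 genes of these 3 lists. In the same order 1, 3 and 0 of them had an unadjusted p under 0.05, beside 1504 of all 15164 genes. Without the length and GC trend ATP6V1F was at 0.36, ATP6V1A at -0.79, GAA at 0.43, ARSB at -0.32, M6PR at -0.99 and NPC1 at -0.51, each still called. The background shares are 32.2% higher and 33.8% lower in siPTBP1.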
